A study of Homo sapiens with 5 samples.

Results

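The D-type cyclin genes CCND1, CCND2 and CCND3 and the genes of their kinase partners, CDK4 and CDK6, were examined for active chromatin and for binding of the myogenic factor MYF5 in cell lines of rhabdomyosarcoma, a tumour whose cells carry part of the skeletal muscle programme. RH18 and RD are established human lines of the fusion-negative form of this tumour, grown in serum-containing medium with no treatment stated. Chromatin immunoprecipitation followed by sequencing (ChIP-seq) gave 3 deposited peak lists, each from 1 library: MYF5 in RH18, acetylation of histone H3 at lysine 27 (H3K27ac, a mark of active promoters and enhancers) in RH18, and H3K27ac in RD. The labels also list input DNA of each line, which had no list here. The genes were taken as fixed hg19 windows, from 69350001 to 69520000 on chromosome 11 for CCND1, from 4280001 to 4460000 on chromosome 12 for CCND2, from 41850001 to 42070000 on chromosome 6 for CCND3, from 58100001 to 58200000 on chromosome 12 for CDK4, and from 92180001 to 92510000 on chromosome 7 for CDK6. Every listed peak that overlapped a window by at least 1 bp was a member. This gave 172 of the 100703 peaks of the lists: 24 of 11136 MYF5 peaks, 61 of 46408 RH18 H3K27ac regions and 87 of 43159 RD H3K27ac regions.

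D-type cyclins bind CDK4 and CDK6, and the active complexes phosphorylate the retinoblastoma protein, which releases E2F factors and lets a cell pass from G1 into S phase. In cultured mouse myoblasts, cyclin D1 with CDK4 opposes the myogenic factors, whereas cyclin D3 rises as the cells leave the cycle and differentiate. MYF5 belongs to the family of MYOD1 and myogenin, basic helix-loop-helix proteins that pair with E proteins and bind the E-box, CANNTG. No annotation of the hg19 build was used, so peaks are placed by coordinate and not by exon, intron or promoter, and a peak in a window may belong to a neighbour. In the RefSeq order the coding genes next to CCND1 include MYEOV and LTO1, next to CCND2 PARP11 and TIGAR, next to CCND3 BYSL and TAF8, next to CDK4 TSPAN31 and MARCHF9, and next to CDK6 FAM133B and SAMD9.

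The promoters of CDK4, CDK6 and CCND3, the genes whose sequences were used here, differed in their E-boxes. The RefSeq promoter table (GRCh38.p14) held 1 start of CDK4, 2 of CDK6 and 3 of CCND3, and sequences of CCND1 and CCND2 were not used here. In the 250 bases before the start, the CDK4 promoter (chr12:57752311-57752560, minus strand) held 5 matches to CANNTG, of which 3 were CACGTG and 1 was CAGCTG. Of 35116 promoter stretches of this length, 61.8% held a CANNTG, 0.888% held 5 or more, and 0.0797% held 3 or more CACGTG. A CDK6 promoter (chr7:92836574-92836823, minus strand) held 1 match, CAGCTG, found in 14.0% of all such stretches. A CCND3 promoter (chr6:42048689-42048938, minus strand) held 1 match, CACCTG, which on either strand was found in 17.5%. The other 3 stretches held none. CANNTG reads the same on both strands, so each match counts for both. Which forms of the E-box MYF5 prefers was not examined here. The rare count of CACGTG at CDK4 is therefore not linked to its MYF5 peaks. These coordinates are of another build than the peaks and were not placed on them, so a match is a description of the letters and not a bound site. The stretches that hold a match are printed 5′ to 3′ with the CANNTG letters in capitals, to show how unequally the E-boxes are spread.
CDK4: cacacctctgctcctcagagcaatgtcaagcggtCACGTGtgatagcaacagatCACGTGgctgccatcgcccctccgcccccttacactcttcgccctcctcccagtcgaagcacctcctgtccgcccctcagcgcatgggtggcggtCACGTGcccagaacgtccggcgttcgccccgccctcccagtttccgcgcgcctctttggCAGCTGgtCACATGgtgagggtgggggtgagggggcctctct
CDK6: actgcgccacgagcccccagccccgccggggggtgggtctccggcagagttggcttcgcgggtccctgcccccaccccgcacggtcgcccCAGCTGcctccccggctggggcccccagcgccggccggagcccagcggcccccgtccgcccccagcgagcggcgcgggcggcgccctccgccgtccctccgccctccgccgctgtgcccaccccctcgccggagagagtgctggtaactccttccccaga
CCND3: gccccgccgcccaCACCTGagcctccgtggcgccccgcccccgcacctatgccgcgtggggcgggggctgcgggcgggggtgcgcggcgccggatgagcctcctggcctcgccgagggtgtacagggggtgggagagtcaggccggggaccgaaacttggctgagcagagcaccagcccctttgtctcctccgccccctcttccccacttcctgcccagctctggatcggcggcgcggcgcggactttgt

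MYF5 peaks lay in 4 of the 5 windows. The CCND1 window held none, CCND2 held 2, CCND3 held 5, CDK4 held 8 and CDK6 held 9. The CDK4 count stood in the shortest window: of 30382 bins of its length of 100 kb laid end to end over the genome, gene-poor stretches included, 0.181% held at least 8 MYF5 summits. For CDK6 1.51% of bins of its length held at least 9, for CCND3 3.64% held at least 5 and for CCND2 14.9% held at least 2. At CCND1 the absence was the common state, since 30.0% of bins of that length held any MYF5 summit. Heights are given below as the authors' fold enrichment, a ratio to the caller's local background, and as sequenced tags behind the summit, a number worked back from that fold and its p-value. The 24 peaks rested on 22 to 174 tags, with a median of 45 against 42 over the list, and 13 of them exceeded that list median. Their median fold was lower, at 8.63 against 11.2, and 6 exceeded the list median of fold. Their local background was higher, at 2.23 times the lowest of the list against 1.27, and it was called raised, at 4 times or more, for 7 of the 24 peaks (29.2%) against 4.91% of the list. All 7 lay in the CDK4 and CDK6 windows, and the part of the background in these folds was not tested.

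**Figure D1:**
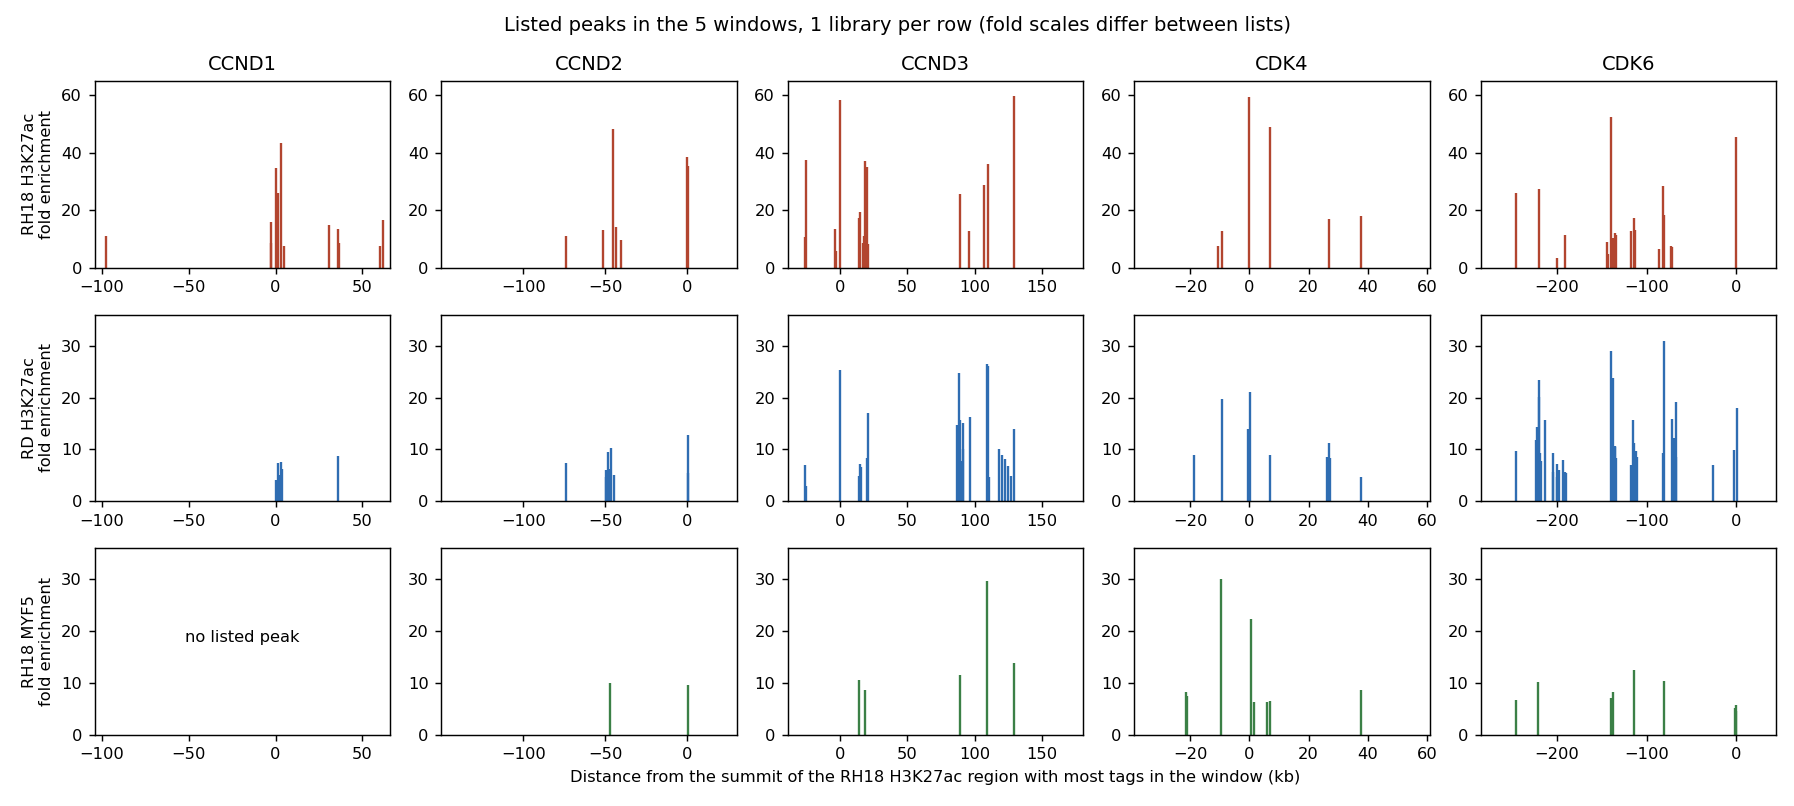
Fold enrichment (vertical axis, authors' values) of each listed peak against its distance in kb from the summit of the RH18 H3K27ac region with most tags in the window. Rows are the RH18 H3K27ac, RD H3K27ac and RH18 MYF5 libraries and columns the 5 windows; MYF5 peaks are absent at CCND1, and the RD row is denser than the RH18 row at CDK6, with 39 regions against 19.

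Acetylated regions were found in both lines at all 5 genes, but the number and length of regions differed by window. The CCND1 window held 12 regions over 9.03 kb in RH18 and 6 over 3.10 kb in RD. The CCND2 window held 7 over 5.11 kb in RH18 and 9 over 5.83 kb in RD. The CCND3 window held 17 over 12.7 kb in RH18 and 24 over 22.7 kb in RD. The CDK4 window held 6 over 7.12 kb in RH18 and 9 over 6.47 kb in RD, and the CDK6 window 19 over 11.3 kb in RH18 and 39 over 19.0 kb in RD. The windows differ in length, and as a share of its window the covered length was highest at CDK4 in RH18, at 7.12%, and at CCND3 in RD, at 10.3%. CCND2 had the lowest share in RH18, at 2.84%, and CCND1 in RD, at 1.82%. Of bins of the same length, 5.64% held at least as many RH18 regions as CCND1, 13.5% as CCND2, 4.54% as CCND3, 8.39% as CDK4 and 7.35% as CDK6. In RD these shares were 14.8% for CCND1, 8.88% for CCND2, 1.22% for CCND3, 3.60% for CDK4 and 0.618% for CDK6. The lists ended at unlike thresholds, with a lowest −log10 p-value of 7.09 in RH18 and 5.00 in RD. Among regions with a −log10 q-value of at least 10, a limit that is not of equal strictness in the 2 lists, the numbers were 12 in RH18 and 4 in RD at CCND1, 7 and 5 at CCND2, 17 and 17 at CCND3, 6 and 9 at CDK4, and 18 and 29 at CDK6. Among the 20000 regions of most tags in each line they were 4 in RH18 and 4 in RD at CCND1, 3 and 5 at CCND2, 9 and 16 at CCND3, 4 and 9 at CDK4, and 10 and 16 at CDK6. RD had more regions than RH18 in the lists and under both limits at CDK4 and CDK6, while the order at the 3 cyclin genes depended on the limit. With regions within 1 kb joined, the excess was smaller, at 5 in RH18 and 6 in RD at CDK4, and 17 and 22 at CDK6. At CDK4 the covered length was larger in RH18, so the number there depended on how regions were split.

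**Figure D2:**
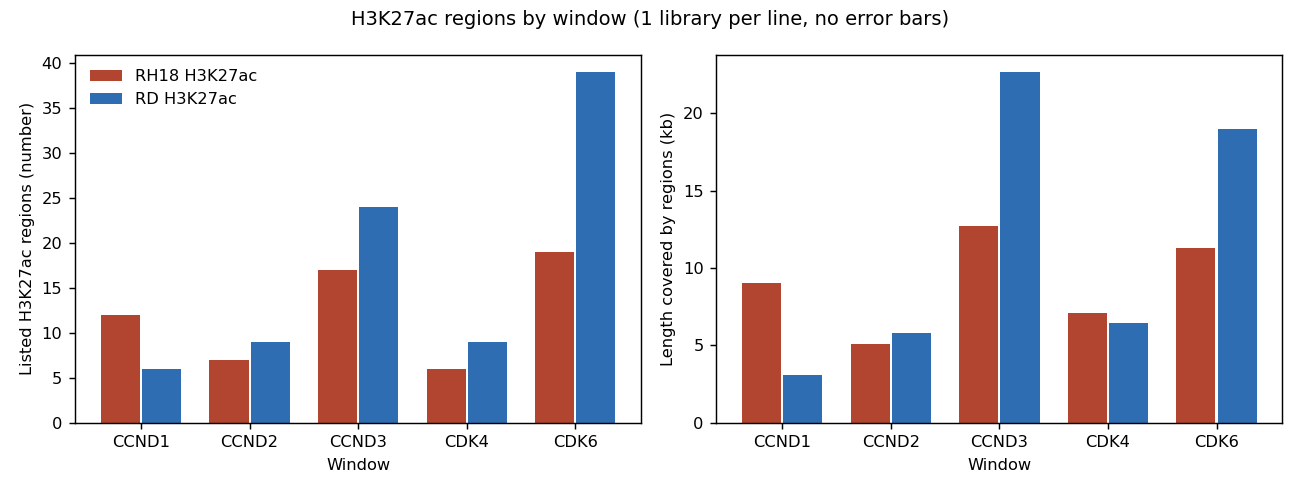
Number of listed H3K27ac regions (left) and length covered by them in kb (right) in each window, with RH18 in red and RD in blue, each 1 library. RH18 exceeds RD at CCND1 in both panels, with 12 against 6 regions, and RD exceeds RH18 at CCND3 and CDK6 in both.

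CCND1, which encodes the cyclin that links growth factor signals to the cell cycle, was acetylated over a compact stretch in both lines. The RH18 regions ranged from fold 7.55 to 43.5 and from 22 to 166 tags, and the RD regions from fold 4.17 to 8.78 and from 77 to 134 tags. The highest and widest RH18 region spanned 69455859 to 69458183 (2325 bp) with a fold of 43.5 on 132 tags. The region with most RH18 tags, 166, lay further left at 69453094 to 69454454, with another RH18 region, at 69454950 to 69455772, between them. In RD the region with most tags, 134, lay at 69456877 to 69457428, with its summit 30 bp from that of the highest RH18 region. The widest RD region, of 834 bp, lay at 69454876 to 69455709. The leading domain, formed by joining neighbouring regions as described for CCND3, ran from 69451054 to 69459446 in RH18 (6 regions, rank 925 of 18842) and from 69453970 to 69458148 in RD (5 regions, rank 4220 of 16671). The RD region of highest fold, 8.78, lay apart from that stretch at 69489385 to 69490101, with its summit 22 bp from that of an RH18 region.

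All 6 RD regions at CCND1 overlapped an RH18 region, and 4 of the 12 RH18 regions overlapped an RD region. The 8 others in RH18 lay up to 97069 bp from the nearest RD region, and the highest of them, at 69515428 to 69515943 with a fold of 16.6 on 45 tags, lay 25327 bp away. Local background was called raised for 1 of 12 RH18 regions and 5 of 6 RD regions, where 10.1% of the RH18 list and 31.9% of the RD list were raised. The nearest MYF5 peak lay 37849 bp outside the window, at 69311991 to 69312286, with a fold of 20.0 on 60 tags. Its summit was 148 bp from an RH18 region and 53193 bp from an RD region.

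CCND2 encodes a further D-type cyclin. Its window had separate clusters of acetylation in each line, and a MYF5 peak at each of the clusters with most tags. In RH18 the highest and widest region ran from 4382932 to 4385527 (2596 bp) with a fold of 48.2 on 133 tags. In RD that stretch was covered by a region from 4382984 to 4385015, the widest of that line here at 2032 bp, with a fold of 10.3 on 186 tags, but its summit lay 1317 bp from the RH18 one. RH18 also had a region further left, at 4378578 to 4378934. Between it and that stretch, 4 RD regions from 4380047 to 4382707 overlapped no RH18 region. The strongest of these RD regions, at 4381370 to 4382455, had a fold of 9.49 and the most RD tags of the window, 205. It lay 477 bp from the widest RH18 region. The highest RH18 region without an RD counterpart lay on the right at 4386008 to 4386288, with a fold of 14.1 on 38 tags. This cluster was the leading domain of the window, at rank 1437 in RH18 (4378578 to 4389788, 4 regions) and rank 1402 in RD (4380047 to 4385411, 6 regions). A further cluster ranked 5559 in RH18 and 6806 in RD. In RH18 it included a region at 4429724 to 4430195 with a fold of 38.7 on 147 tags, the most of that line here. The RD region there, at 4429633 to 4430139, had the highest RD fold of the window, 12.7 on 174 tags, and its summit was 24 bp from the RH18 one. The 2 MYF5 peaks, at 4382875 to 4383099 (fold 9.99, 45 tags) and 4429969 to 4430157 (fold 9.68, 39 tags), had their summits inside these regions of both lines. They were of moderate height, with more tags than 55.1% and 39.8% of the MYF5 list. Local background was called raised for 0 of 7 RH18 regions and 6 of 9 RD regions of the window, beside 10.1% of the RH18 list and 31.9% of the RD list. Neither MYF5 peak was among the 5000 with the strongest p-values, which make up 44.9% of the MYF5 list.

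CCND3, the D-type cyclin that in mouse muscle cells persists into differentiation, had the largest acetylated domain of the 5 windows, in RD. Neighbouring regions were stitched at the default distance of the ROSE program, which lies between 12 and 13 kb, and the resulting domains were ordered within each line by the sum of fold times width. In RD, 16 regions from 41974972 to 42018548 joined into a domain of 43.6 kb that ranked 43 of 16671. RH18 had 5 regions in that stretch, of which 4 formed a domain of 21.0 kb, from 41978244 to 41999281, that ranked 1942 of 18842. The leading RH18 domain of the window was another, from 41902699 to 41910198, with 7 regions and rank 1498. By fold times width the RD domain at CCND3 was the only one of these windows inside the top 500 of its line. With joining within 5 kb or 25 kb, the leading RD domain of the CCND3 window ranked 185 or 79. Ranked by summed tags, an RH18 domain at CDK4, at 436, and an RD domain at CDK6, at 299, were inside the top 500 as well. The RD domain with most tags at CDK6, 1173, ran from 92241156 to 92275044. It was not the one that led there by fold times width. Of the 24 RD regions of the window, 11 overlapped no RH18 region. The highest of these, at 41976547 to 41978160 with a fold of 24.7 on 218 tags, lay 84 bp from an RH18 region.

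The regions of highest fold in RD lay side by side in this domain, at 41995225 to 41998591 (3367 bp, fold 26.4, 257 tags) and at 41998687 to 41999316 (fold 26.1, 273 tags). The narrower one had more tags than 99.7% of the RD list. RH18 had a region of fold 36.1 on 138 tags at 41997662 to 41999281. The highest MYF5 peak of the window, at 41998327 to 41998844, had its summit inside regions of both lines. It had a fold of 29.6 on 114 tags, above 96.0% of the MYF5 list by fold. At the right end of the domain, at 42018224 to 42018640, stood the RH18 region of highest fold, 59.9 on 182 tags. An RD region there had a fold of 14.0 on 201 tags, and a MYF5 peak at 42018259 to 42018501 a fold of 13.9 on 45 tags.

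Further left in the CCND3 window, a strong region of both lines held no MYF5 summit. It spanned 41888345 to 41889734 in RH18, with a fold of 58.3 and 216 tags, the most of that line in the window, and 41888387 to 41889858 in RD, with a fold of 25.3 on 228 tags. Another cluster included the widest region of each line in the window, at 41907714 to 41909443 in RH18 (1730 bp, fold 34.9) and at 41905395 to 41909464 in RD (4070 bp, fold 8.35, on 180 tags and a background 7.83 times the lowest). MYF5 peaks there were low, at 41907380 to 41907592 with a fold of 8.61 on 25 tags, and at 41903069 to 41903252 with a fold of 10.6 on 31 tags. The summit of the second lay outside regions, 119 bp from one of RH18 and 102 bp from one of RD. The remaining MYF5 peak, at 41978105 to 41978473 with a fold of 11.5 on 37 tags, lay inside regions of both lines. In RH18 the highest region with no RD counterpart was at 41884634 to 41885279, with a fold of 13.3 on 79 tags.

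**Figure D3:**
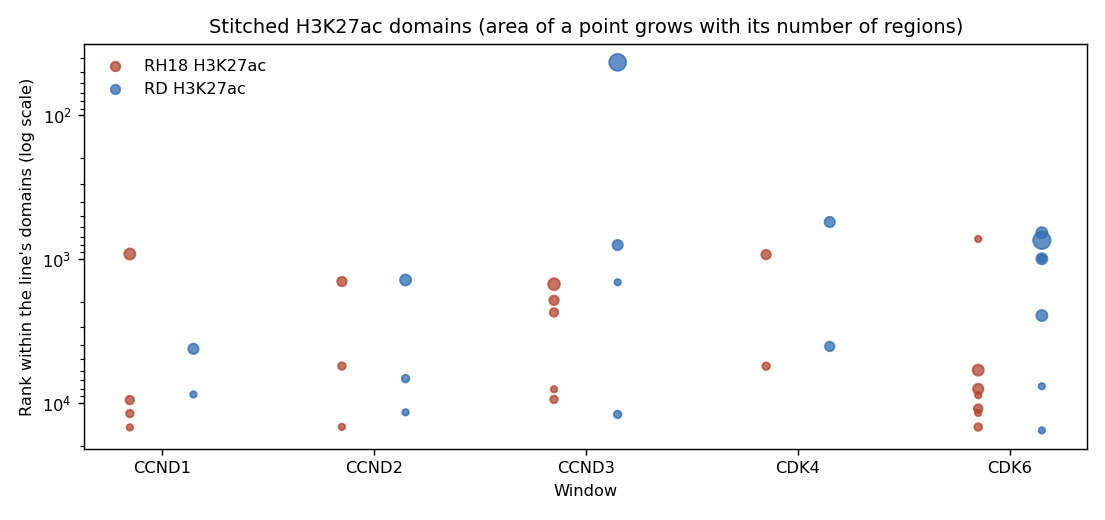
Rank of each H3K27ac domain that overlaps a window among all domains of its line (log scale, rank 1 at the top), with RH18 in red left of RD in blue and point area growing with the number of joined regions. The RD domain at CCND3, rank 43 with 16 regions, stands above all others; the leading RH18 domains lie between ranks 727 and 1498.

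CDK4, the catalytic partner of D cyclins, had the peaks with most tags of the windows in both RH18 libraries. The RH18 region at 58138105 to 58139829 had a fold of 59.5 on 416 tags, and 0.0280% of the RH18 list had as many tags or more. In RD the same stretch held the region of highest fold, at 58138788 to 58139578, with a fold of 21.2 on 229 tags and its summit 15 bp from the RH18 one. A MYF5 peak of 1708 bp, at 58138150 to 58139857, covered it with a fold of 22.3 on 174 tags, more than 98.9% of the MYF5 list. The next RH18 region, at 58144879 to 58146194, had a fold of 49.1 on 371 tags, and the RD region there, at 58144968 to 58146079, a fold of 8.99 on 227 tags. MYF5 had a peak of fold 6.61 on 89 tags at 58145133 to 58146192, inside regions of both lines, and one of fold 6.31 on 46 tags at 58144667 to 58145017, 12 bp outside the RH18 region.

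The highest MYF5 fold of the 5 windows, 30.2 on 165 tags, lay at 58129177 to 58129609. This peak sat in the widest RD region of the CDK4 window, at 58128951 to 58130654 (1704 bp, fold 19.7, 204 tags), and in an RH18 region at 58129075 to 58130511 with a fold of 12.8 on 91 tags. Within RH18, MYF5 and acetylation did not follow one order in this window. By fold, the highest MYF5 peak lay in a region of 12.8, below the 59.5 and 49.1 of those at 58138105 and 58144879. By tags, the MYF5 peak with most, 174, lay in the RH18 region with most, 416. The MYF5 peak of 165 tags, however, lay in a region of 91, and that of 89 tags in a region of 371. These regions made up the leading domain of the window, at rank 933 in RH18 (58128319 to 58146194, 4 regions) and rank 554 in RD (58120042 to 58146079, 5 regions). The widest RH18 region, at 58165183 to 58167034 (1852 bp, fold 16.9, 182 tags), held no MYF5 summit, nor did the RD regions there, of which the one at 58165591 to 58165895 had the most RD tags of the window, 245. The other MYF5 peaks were at 58140322 to 58140575 (fold 6.33, 48 tags, 601 bp from an RH18 region and 852 bp from an RD region), at 58176439 to 58176926 (fold 8.66, 38 tags, inside an RH18 region and 14 bp from an RD region), and at 58117033 to 58117448 and 58117631 to 58118750 (folds 8.31 and 7.51, 40 and 36 tags). The last pair lay 10997 and 10339 bp from RH18 regions, and 2720 and 2062 bp from RD regions. Only 1 region of each line had no counterpart, at 58128319 to 58128557 in RH18 (fold 7.67) and at 58120042 to 58120343 in RD (fold 8.87).

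Local background at CDK4 was above the lowest in all 3 libraries. Its median was 3.73 times the lowest for RH18 H3K27ac, 5.98 times for RD H3K27ac and 3.21 times for MYF5, against 1.52, 2.34 and 1.27 over the whole lists. It was called raised for 2 of 6 RH18 regions, 5 of 9 RD regions and 3 of 8 MYF5 peaks, beside 10.1%, 31.9% and 4.91% of the lists. With the window widened by 100 kb on each side, the medians were 1.51 for RH18 H3K27ac, 3.13 for RD H3K27ac and 3.85 for MYF5, so the first 2 were lower and that of MYF5 higher once the flanks were included. Its part in the tags and folds was not tested. Of the 8 MYF5 peaks, 3 were among the 5000 of strongest p-value, beside 44.9% of the list.

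CDK6, the other kinase partner of the D cyclins, had the most acetylated regions, and in each line the one with most tags was shared. The RH18 region from 92461859 to 92466722 was the widest of any in the windows, at 4864 bp, with a fold of 45.4 and the most RH18 tags of the window, 355. In RD it was matched by regions at 92461906 to 92465917 (4012 bp, fold 9.80, 259 tags, background 9.88 times the lowest) and at 92466038 to 92466576, with summits 1979 and 1322 bp from the RH18 one. This stretch held 3 MYF5 summits, in peaks at 92463435 to 92463606, 92463988 to 92464368 and 92464886 to 92465157. They had low folds of 5.21, 4.66 and 5.77 on 46, 41 and 51 tags, over a background of 4.86 to 4.87 times the lowest. In RH18 the region was a domain of its own, ranked 727, and in RD the corresponding domain ranked 995.

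Outside that stretch the CDK6 window held 18 RH18 regions and 37 RD regions, the widest of 820 bp in RH18 and 1357 bp in RD. In RD, 17 regions from 92241156 to 92275044 joined into a domain of 33.9 kb, rank 743, and RH18 had 3 regions there. A domain at 92382754 to 92398358, with 6 RD regions, was the leading one of RD, at rank 657, and RH18 had 4 regions in it. It held the RD region of highest fold in the windows, at 92384078 to 92385434, with a fold of 31.0 on 191 tags. The RH18 region of highest fold, 52.3 on 159 tags, lay at 92324901 to 92325392, and an RD region of fold 29.1 on 171 tags at 92324801 to 92325549. Of the 39 RD regions, 24 overlapped no RH18 region, and 22 of these lay within 5 kb of one. The highest of them, at 92244861 to 92245492 with a fold of 20.1 on 117 tags, lay 209 bp away. Of the 19 RH18 regions, 5 overlapped no RD region, the highest at 92330793 to 92331072 with a fold of 11.2 on 42 tags. Local background was called raised for 8 of 19 RH18 regions and 5 of 39 RD regions, beside 10.1% of the RH18 list and 31.9% of the RD list. For MYF5 it was raised for 4 of 9 peaks, beside 4.91% of the list. Its median was 3.03 times the lowest for RH18 H3K27ac and 2.92 times for MYF5, near the values at CDK4, and 1.00 for RD H3K27ac. In RD only 8 of the 39 regions had a single solution when tags and background were worked back.

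The 6 further MYF5 peaks at CDK6 lay inside or near other regions. Those at 92219443 to 92219691 (fold 6.63, 59 tags), at 92325155 to 92325326 (fold 7.02, 22 tags) and at 92327890 to 92328124 (fold 8.23, 36 tags) had their summits inside regions of both lines. The first of these again lay over raised background, at 4.87 times the lowest. Those at 92350423 to 92350638 (fold 12.48, 39 tags) and at 92384407 to 92384902 (fold 10.4, 57 tags) were inside an RD region, and 26 and 80 bp outside an RH18 region. The peak at 92244012 to 92244218 (fold 10.3, 61 tags) lay outside both, 154 bp from an RH18 region and 120 bp from an RD region. No MYF5 peak at CDK6 had a fold above 12.48, whereas CCND3 and CDK4 had peaks of 29.6 and 30.2.

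Over the 5 windows together, 16 of 24 MYF5 summits lay inside an RH18 H3K27ac region (66.7%, exact Clopper-Pearson 95% interval 44.7 to 84.4%), beside 55.2% over the whole MYF5 list. Inside an RD region lay 17 (70.8%, 48.9 to 87.4%), beside 39.9%. The first interval included the share of the whole list and the second did not, with counting error alone considered. Both intervals take the summits as independent, though these cluster in 5 chosen windows, so neither is a test. Regions of both lines held 15 summits (62.5%, 40.6 to 81.2%), beside 33.5%. RH18 alone held 1, beside 21.7%, RD alone held 2, beside 6.38%, and neither line held 6, beside 38.4%. Within 500 bp of a region lay 21 summits in each line, beside 72.1% of the list for RH18 and 62.9% for RD. The 3 farther ones were all in the CDK4 window, and without that window 87.5% of summits lay inside RD regions. The 4 MYF5 peaks with more than 80 tags, from 89 to 174, all lay inside regions of both lines, as did 11 of the 20 with 22 to 61 tags. Over the whole list the shares inside regions of both lines were 20.7% above 80 tags and 35.1% at or below, a limit set in the gap between the members' own values. No MYF5 list of RD was used, so the RD shares concern sites bound in RH18.

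**Figure D4:**
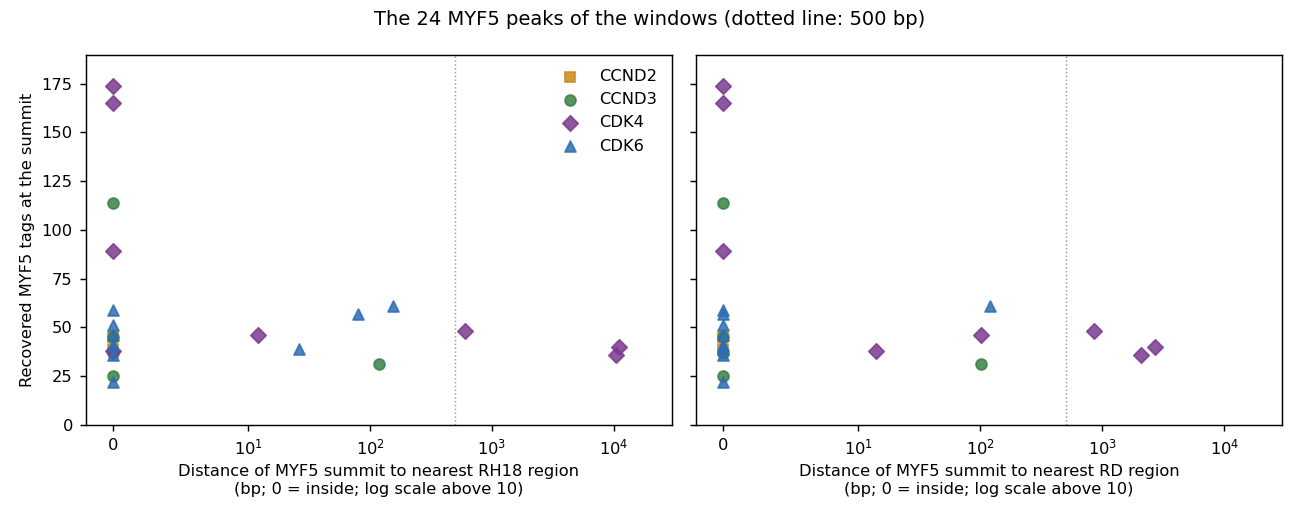
Recovered tags at the summit of each of the 24 MYF5 peaks against the distance of that summit in bp to the nearest H3K27ac region of RH18 (left) and RD (right), with 0 for a summit inside a region and symbols for the windows. The 4 peaks with more than 80 tags are at distance 0 in both panels, and only CDK4 peaks lie beyond 500 bp.

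Of the 61 RH18 regions, 42 overlapped an RD region (68.9%, 55.7 to 80.1%), beside 45.1% of the RH18 list. Of the 87 RD regions, 47 overlapped an RH18 region (54.0%, 43.0 to 64.8%), beside 60.0% of the RD list. By window, the RH18 share ran from 33.3% at CCND1 to 88.2% at CCND3, and the RD share from 38.5% at CDK6 to all 6 regions at CCND1. Where regions overlapped, the median distance from an RH18 summit to the nearest RD one was 36.5 bp, beside 43.0 bp over the list. From an RD summit to the nearest RH18 one it was 41.0 bp, beside 61.0 bp over the list. Of the unshared regions, 16 of 19 in RH18 lay within 5 kb of a region of the other line, beside 35.0% of unshared regions over the list, and 34 of 40 in RD, beside 41.2%. Unshared regions had fewer tags, with a median of 40 tags beside 97 for shared ones in RH18, and 70 beside 132 in RD. The same held over the whole lists, with 42 beside 95 in RH18 and 59 beside 109 in RD. The median fold was 8.83 for unshared regions beside 22.6 for shared ones in RH18, but 8.69 beside 9.24 in RD. The lists ended at different p-values, so an unshared region is one with no listed counterpart.

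MYF5 summits lay in 14 of the 61 RH18 regions (23.0%, 13.2 to 35.5%), beside 12.0% of the list, and in 15 of the 87 RD regions (17.2%, 9.98 to 26.8%), beside 9.71%. The share in RH18 was 28.6% at CCND2, 23.5% at CCND3, 66.7% at CDK4 and 21.1% at CDK6, and 0 of 12 at CCND1. All of these regions, in either line, overlapped a region of the other line. Over the lists, 4461 of 5561 RH18 regions and 3752 of 4189 RD regions with a MYF5 summit did so. Of shared regions, 33.3% in RH18 and 31.9% in RD held a summit, beside 21.3% and 14.5% of shared regions over the lists. Among unshared regions 0 of 19 in RH18 and 0 of 40 in RD held a summit, which allows shares of up to 15.8% and 7.50% when 3 regions are taken as the most that a count of 0 allows, and 4.31% and 2.53% of unshared regions did so over the lists. For unshared regions the windows thus could not be told from the lists.

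**Figure D5:**
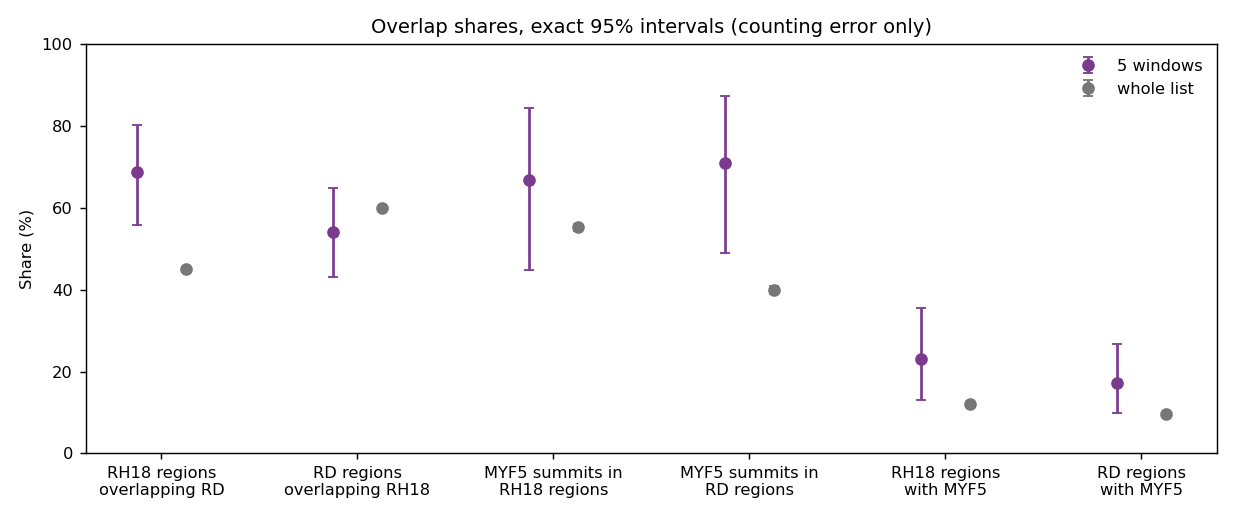
Shares in percent over the 5 windows (purple) and over the whole list (grey), with exact 95% intervals for counting error. The interval of the windows lies above the list's share for RH18 regions overlapping RD, for MYF5 summits in RD regions and for both shares of regions with MYF5, and includes it for the other 2. The intervals take peaks as independent, though they cluster in 5 chosen windows, so these positions are no test.

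Weighted by fold times width, the windows held 0.140% of the RH18 H3K27ac list and 0.297% of the RD list. By number they held 0.131% of RH18 regions and 0.202% of RD regions, so the RH18 share was close to that by number. The windows made up 0.0329% of the bases up to the last listed position of each chromosome. By fold times width in RD, CCND3 held 0.132% and CDK6 0.101% of the list, with 0.0345% at CDK4, 0.0203% at CCND2 and 0.00864% at CCND1. In RH18 the values were 0.0391% for CCND3, 0.0349% for CDK6, 0.0238% for CDK4, 0.0231% for CCND1 and 0.0191% for CCND2. By number of regions, the RD shares were 0.0556% at CCND3, 0.0904% at CDK6, 0.0209% at CDK4 and at CCND2, and 0.0139% at CCND1. In RH18 they were 0.0366% at CCND3, 0.0409% at CDK6, 0.0129% at CDK4, 0.0259% at CCND1 and 0.0151% at CCND2. These are totals over windows of unequal length. Per 100 kb of window, CDK4 was highest in RH18, at 0.0238%, and CDK6 and CCND2 were lowest, both at 0.0106%. In RD, CCND3 was highest at 0.0600% per 100 kb, CDK4 had 0.0345%, CDK6 0.0307%, CCND2 0.0113% and CCND1 0.00508%. Each line had 1 library and no spread could be measured, so none of these differences has a replicate check.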

How the data were processed

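ChIP-seq peak lists of 3 libraries (RH18 MYF5, RH18 H3K27ac and RD H3K27ac) were used, each the only library of its group. The 2 input samples had no list here. BWA 0.7.10, MACS2 2.1.0 and the hg19 build appear in the submitters' processing notes without a stated role. Thresholds, control and total reads are not given in the sources used here. Formaldehyde-fixed, sonicated chromatin was enriched with antibodies to H3K27ac or MYF5, per the labels' protocols.

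The deposited peaks carry a position, a summit, a fold enrichment (a ratio over local background), a −log10 p-value and a −log10 q-value. The deposited score is 10 times the −log10 p-value, truncated, and was not used. Fold and p-value fit the formulas of MACS2 (pileup plus 1 over background plus 1, and a Poisson tail), from which tags and background were recovered. Tags came out whole within 0.1 for 100.0% of peaks in each list. More than 1 solution existed for 44.3% (MYF5), 19.2% (RH18 H3K27ac) and 59.9% (RD H3K27ac) of peaks, and for 7, 8 and 44 members. These were resolved by the nearest whole tag with a background not below the lowest of single-solution peaks. For these peaks the whole number was thus favoured by the choice and is no check of the formulas. A tag was worth 0.658, 0.832 and 0.273 pileup units in these lists, so folds, p-values and q-values are not on 1 scale in the lists, and the count at a common q-value limit is not equally strict in both lines. The step was tested on simulated data made with the same formulas, which does not check the formulas themselves.

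A MYF5 peak was placed by its summit, and overlap meant 1 shared bp or more. No test was made: groups held 1 library, and intervals cover counting error only, with peaks taken as independent. Sequences are RefSeq's (GRCh38.p14). Named in each window and list were the peaks of highest fold, most tags and greatest width, every MYF5 peak, the leading domain, and the highest region found in 1 line alone. A few regions beside these were named after their values were seen. Members, lists and rules were chosen with earlier results of these data known. Promoters of other cell cycle genes were not analysed here, for want of an hg19 annotation. Intervals came from scipy 1.17.1, tables from pandas 2.3.3 and numpy 2.4.6, and plots from matplotlib 3.10.9, under Python 3.11.15.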

Additional observations from a re-analysis of the deposited data

How the results depend on the processing

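No paired analysis was possible because each group held 1 library. Of 159 values recomputed under alternatives, 111 stayed within the 95% interval of a share, or within 1.5 times of any other value, and 48 moved; the cause was not tested. The share of RH18 regions overlapping RD was 55.0% with a −log10 q of at least 10, 83.3% with the 20000 regions of most tags and 44.3% with 50% reciprocal overlap. The share of RD regions overlapping RH18 was 31.0% with reciprocal overlap and 66.7% without the CDK6 window. Counting summits within 500 bp gave 87.5% of MYF5 summits in either line, and leaving out CDK4 gave 87.5% in RD. The share of RH18 regions holding a MYF5 summit was 40.0% with the 20000 regions of most tags and 8.20% with the 5000 MYF5 peaks of largest −log10 p. Whole-list shares under the changed q-value, tag, p-value and reciprocal overlap limits are not given here. The window shares under those limits therefore cannot be set against the list shares of the main settings. The share of fold times width was 0.258% (RH18) and 0.527% (RD) in windows widened by 100 kb, and in RD 0.165% without CCND3 and 0.196% without CDK6. Ranked by summed tags, the highest rank of an RH18 domain was 1522 at CCND1, 3548 at CCND2, 436 at CDK4 and 1647 at CDK6. For RD it was 1680 at CCND1 and 299 at CDK6. At CCND2 in RH18 the domain with most tags, 283, was not the one leading by fold times width, with 259. The same held at CDK6, with 448 against 355 tags in RH18 and 1173 against 630 in RD. Joining within 5 kb gave rank 2017 (RH18) and 1540 (RD) at CDK4 and 185 (RD) at CCND3; joining within 25 kb gave 733 (RH18) and 79 (RD) at CCND3. Median background in widened windows was 1.51 (RH18) and 3.13 (RD) at CDK4, 1.57 at CCND2 (RD) and 1.17 at CCND2 (MYF5). From peaks with a single solution it was 1.66 at CCND2 (RH18) and 3.13 at CDK6 (RD). Numbers of peaks under other settings were chosen after seeing the data. With the 20000 regions of most tags, RH18 had 4, 3, 9 and 10 regions at CCND1, CCND2, CCND3 and CDK6, and RD 5 at CCND2 and 16 at CDK6. Joined within 1 kb, RH18 had 7 at CCND1 and 9 at CCND3, and RD 2, 3, 12 and 22 at CCND1, CCND2, CCND3 and CDK6. RD had 5 at CCND2 with a −log10 q of at least 10. Of the 5000 MYF5 peaks of largest −log10 p, CCND2 held 0, CCND3 2, CDK4 3 and CDK6 2. The recovered number of tags limits precision, and total library depth is unknown.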
